A study of Caenorhabditis elegans with 4 samples.

Results

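The 10 genes described here encode C. elegans enzymes that write or erase methylation of histone H3 at lysine 4, or subunits of their complexes. The genes are cfp-1, set-2, dpy-30, wdr-5.1, rbbp-5, ash-2, set-16, utx-1, spr-5 and rbr-2. They were taken by name, as a functional group chosen with earlier results of these data known, and all 10 were found among the 19971 nuclear protein-coding genes of the RefSeq gene table of assembly WBcel235. The data are ChIP-seq peak lists from whole late embryos of strain JA1597, aged for 3.5 hours after collection. CFP-1::GFP was immunoprecipitated with an anti-GFP serum in 2 samples, RC03 and RC04, and H3K4me3 with an anti-H3K4me3 antibody in 2 samples of the same numbers. All 4 samples carry the same transgene, a single-site insertion on chromosome IV made with the Mos1-targeted method, in which the cfp-1 coding region, amplified from genomic DNA and fused to gfp, is driven by the dpy-30 promoter. The lists therefore show where tagged CFP-1 expressed from that promoter was called, in a mixture of all embryonic cell types, and no list from embryos without GFP was analysed here.

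COMPASS is the conserved complex that methylates H3K4. In worms its catalytic subunit is SET-2, the SET1 homologue; WDR-5.1, RBBP-5, ASH-2 and DPY-30 form the core that supports catalysis, and CFP-1 is the CXXC zinc finger subunit, whose mammalian homologue binds unmethylated CpG-rich DNA. A related complex is built around SET-16, the worm MLL3/4-like methyltransferase, and contains UTX-1, an H3K27 demethylase. Erasure is carried out by SPR-5, an LSD1-family demethylase of the lower methylation states of H3K4, and by RBR-2, the KDM5-family demethylase of H3K4me3. Trimethylation of H3K4 typically marks promoters of active genes. The question addressed is whether the ends of the genes that control this mark carry CFP-1 and the mark themselves.

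The gene table gives both ends of each gene but no strand, so which of them is the transcript start could not be read from it. Peaks were therefore taken within 500 bp of either end, and a gene was called for an antibody when the same end had a peak in both of its lists. The end with the smaller coordinate is termed the lower end, the other the upper end. Peak positions are in ce10, the build of the lists, while the gene ends are in WBcel235. The chromosome lengths of these builds are taken to differ by about 100 bp at most, which was not checked here, so each distance from a gene end carries that uncertainty. Each peak has the authors' score, a −log10 of a p-value or q-value. It is compared here only within a list, as the percentile rank of the peak among the list's 9216 (CFP-1::GFP RC03), 9256 (CFP-1::GFP RC04), 11357 (H3K4me3 RC03) or 12343 (H3K4me3 RC04) peaks. Read depth is unknown.

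CFP-1 was called at 7 of the 10 genes and H3K4me3 at 9 of the 10. Among all protein-coding genes, 25.9% were called for CFP-1 and 30.6% for H3K4me3. At the same 7 genes (set-2, dpy-30, rbbp-5, ash-2, set-16, utx-1 and rbr-2) the peaks of both antibodies overlapped in all 4 pairings of a CFP-1 list with an H3K4me3 list, against 22.0% of all protein-coding genes. The 3 exceptions differed in kind. At cfp-1 the mark was called without CFP-1, at wdr-5.1 CFP-1 was called in a single list, and at spr-5 no list had a peak at either end. The members were chosen as a functional group and no test of the counts was made. Parts of dpy-30 and cfp-1 are also in the transgene, and signal from it cannot be told apart at these genes. Both genes are in the H3K4me3 count, and dpy-30 is also in the CFP-1 count. The gene closest to the edge of the window was rbr-2, whose CFP-1 peak began 461 bp from the gene in RC03 and 296 bp from it in RC04, and a window of 250 bp left 6 genes with CFP-1. The first peak beyond the window was an H3K4me3 peak of RC03 inside cfp-1, 541 bp from its upper end, with a score of 5.96. The H3K4me3 call of cfp-1 rested on its lower end.

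**Figure D1:**
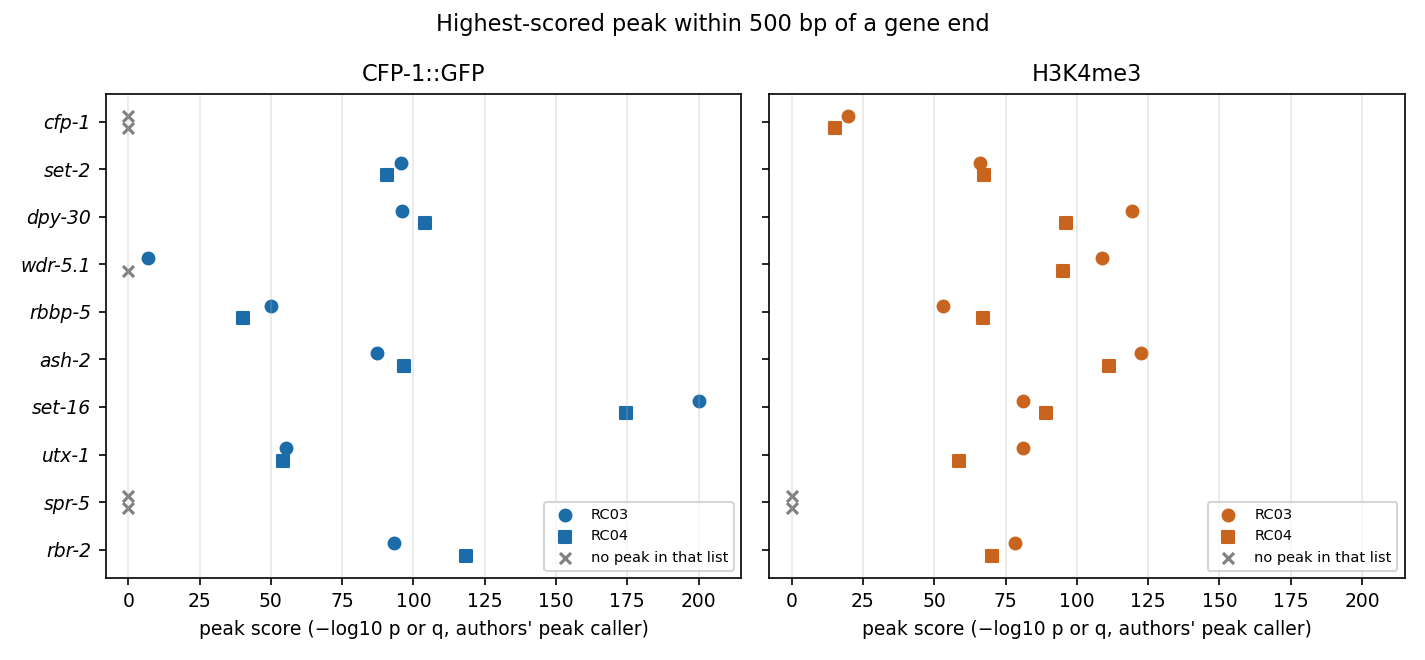
Score of the highest-scored peak within 500 bp of a gene end, for CFP-1::GFP (left) and H3K4me3 (right). Circles are RC03 and squares RC04, and a cross at 0 marks a list without a peak, as in both CFP-1 lists at cfp-1 and in all 4 lists at spr-5.

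Among the COMPASS subunits, set-2 carried CFP-1 next to both of its ends. At the upper end the CFP-1 peaks (III, 4930276 to 4930641 in RC03 and 4930275 to 4930616 in RC04) had scores of 95.5 and 90.6, at percentile ranks of 91.6 and 89.8. They lay wholly inside H3K4me3 peaks of 1399 and 1516 bp (4929745 to 4931143 and 4929569 to 4931084), with scores of 66.1 and 67.5. The CFP-1 peaks began 72 and 71 bp outside the gene, whereas the mark reached 459 and 635 bp into it. At the lower end CFP-1 was called at 4921993 to 4922320 and 4922037 to 4922339 with the much lower scores of 15.7 and 9.25, and H3K4me3 was called there in RC03 only, as peaks scoring 3.89 and 3.24. An H3K4me3 peak inside the gene, called at overlapping positions in both lists, scored 13.9 in RC03 and 12.9 in RC04. CFP-1 was called at this position in RC03 only (4925929 to 4926070, score 5.04). Thus both CFP-1 lists and H3K4me3 RC03 ranked the upper end far above the lower one. In H3K4me3 RC04 only the upper end had a peak within 500 bp. Beyond the window, 894 bp outside the lower end, an RC04 peak scored 6.61 and overlapped an RC03 peak scoring 2.38. An end of another gene, C26E6.12, lay within 500 bp of the upper-end peaks.

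The gene dpy-30 had one of the highest-ranked H3K4me3 peaks of the group. Its CFP-1 peaks (V, 12190830 to 12191526 in RC03 and 12190955 to 12191452 in RC04) had scores of 95.8 and 104.2, at percentile ranks of 91.6 and 91.9. The H3K4me3 peaks at the same end spanned 12190764 to 12192049 and 12190779 to 12192060, scored 119.3 and 96.2, and stood at percentile ranks of 99.8 and 99.1. CFP-1 lay almost entirely outside the gene, reaching 7 bp into it in RC03 and ending 67 bp short of it in RC04. The mark reached 530 and 541 bp from the lower end into this gene of 659 bp. No other gene had an end within 500 bp of the CFP-1 peaks, and an end of rnp-1 lay within 500 bp of the H3K4me3 peaks. The transgene contains a further copy of the dpy-30 promoter, and signal from that copy cannot be told apart from signal at the native gene in these lists.

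At ash-2 the mark was widest. The H3K4me3 peaks covered 3348 bp in RC03 (II, 11977938 to 11981285) and 3426 bp in RC04 (11977818 to 11981243), with scores of 122.6 and 111.3, and both stood at a percentile rank of 99.9 in their list. CFP-1 formed a single peak of 1251 bp in RC03 (11979225 to 11980475), with a score of 87.4. In RC04 the same stretch was called as 3 peaks, at 11979250 to 11979463, 11979511 to 11979969 and 11980109 to 11980481, with scores of 5.01, 86.3 and 96.7. The RC04 peaks lay on both sides of the gene's lower end, with the highest-scored of them 271 to 643 bp inside the gene. All of them fell within the H3K4me3 peak. An end of nosr-1 lay within 500 bp of the highest-scored CFP-1 peak and of the H3K4me3 peak in both lists, so these peaks are not assigned to ash-2 alone, and the H3K4me3 peaks also came within 500 bp of an end of Y17G7B.21. A weak CFP-1 peak was called at the upper end in both lists, with scores of 3.78 and 3.84, and no H3K4me3 peak was called there.

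The WD40-repeat subunit genes rbbp-5 and wdr-5.1 both had the mark, and they differed in CFP-1. At rbbp-5 CFP-1 peaks of 387 and 328 bp (II, 6097502 to 6097888 in RC03 and 6097470 to 6097797 in RC04) scored 49.98 and 40.2. These were the lowest percentile ranks among the 7 genes with CFP-1, 81.0 and 76.1. The H3K4me3 peaks around them (6096998 to 6098390 and 6097088 to 6098336) scored 53.2 and 67.0. At wdr-5.1 the H3K4me3 peaks (III, 3704502 to 3705825 in RC03 and 3704587 to 3705782 in RC04) scored 108.7 and 95.1, at a mean percentile rank of 99.2. The only CFP-1 peak was a 228-bp peak in RC03 (3705095 to 3705322) with a score of 6.83, at a percentile rank of 30.1, inside the H3K4me3 peak. An end of tpp-2 lay within 500 bp of the rbbp-5 peaks, and an end of C14B1.3 within 500 bp of those at wdr-5.1. At wdr-5.1 in RC04 no CFP-1 peak was called at either end, and the nearest one lay 1612 bp away with a score of 8.39. Of the 190 protein-coding genes with a mean H3K4me3 percentile rank of at least 99 over both lists, a limit chosen after the values of wdr-5.1 had been seen, 178 or 93.7% were called for CFP-1, and wdr-5.1 was among the other 12.

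**Figure D2:**
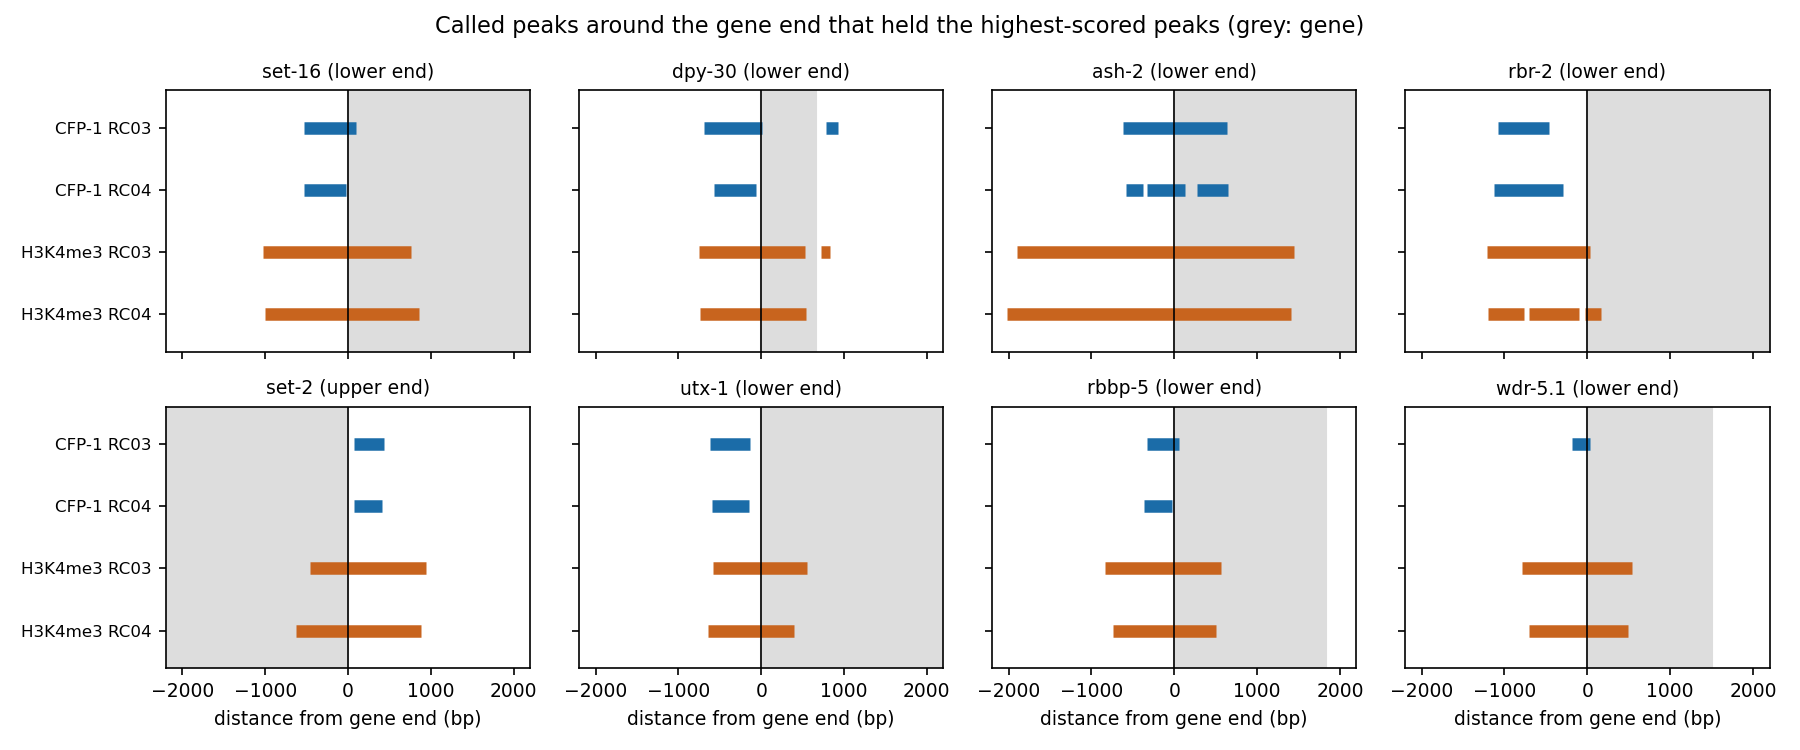
Extent of all called peaks around the gene end with the highest-scored peaks, in bp from that end, for 8 genes (grey, the gene; blue, CFP-1::GFP; orange, H3K4me3). CFP-1 peaks lay mostly outside the gene, except at ash-2, while H3K4me3 peaks crossed into it at all 8 genes, at rbr-2 by 36 bp in RC03 and 165 bp in RC04. The crossing peak of rbr-2 in RC04 scored only 3.76, and the highest-scored H3K4me3 peak there ended 106 bp outside the gene.

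The gene that encodes CFP-1 had the weakest calls among the 9 genes with the mark. Neither CFP-1 list had a peak within 500 bp of either end of cfp-1. H3K4me3 peaks of 176 bp in RC03 (IV, 14077381 to 14077556) and 188 bp in RC04 (14077402 to 14077589) lay across its lower end, with scores of 19.8 and 15.3 at percentile ranks of 70.6 and 69.7. These were far shorter than the 603 to 3426 bp of the highest-scored H3K4me3 peaks at the other 8 marked genes. Among all protein-coding genes, 5.46% were likewise called for H3K4me3 without a CFP-1 peak in either list.

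Inside cfp-1 the mark was called in several short, separate peaks. More than 500 bp from both ends, RC03 had 4 H3K4me3 peaks, with scores of 9.83, 3.74, 2.05 and 5.96, and RC04 had 3, with scores of 8.37, 8.37 and 3.99. The strongest of them recurred at the same place in both lists, at 14078656 to 14078922 and 14078664 to 14078918, and this was also the position of the only CFP-1 peak in the gene (14078684 to 14078904, RC04, score 5.61). The peak at 14080125 to 14080335 in RC03 likewise overlapped that at 14080100 to 14080440 in RC04, whereas the remaining ones did not recur. Of the 4 members with a length of 5000 to 8000 bp, cfp-1 and set-2 had H3K4me3 peaks inside the gene in both lists and none had CFP-1 there in both lists; among the 1691 protein-coding genes of this length the shares were 14.0% for H3K4me3 and 14.8% for CFP-1. This class of length was set after values were seen, and the longer members ash-2 (9213 bp), set-16 (12722 bp) and spr-5 (12159 bp) had 0 such peaks in every list. The transgene carries a second cfp-1 coding region under another promoter. Reads from it cannot be told apart from reads of the native gene in these lists.

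**Figure D3:**
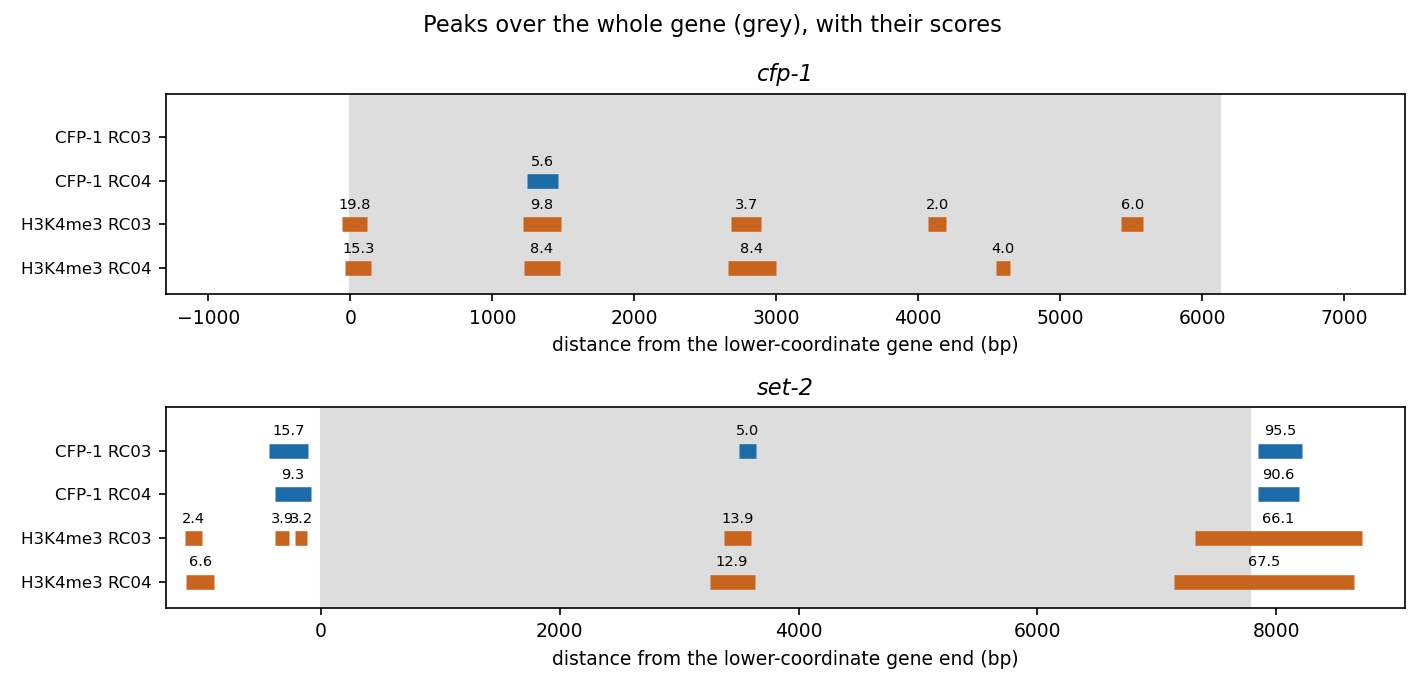
Called peaks over the whole of cfp-1 and set-2, in bp from the lower-coordinate gene end, with the score above each peak (grey, the gene; blue, CFP-1::GFP; orange, H3K4me3). At cfp-1 the H3K4me3 peaks are short, score 19.8 at most and are spread over the gene, whereas at set-2 the highest scores of both antibodies sit at the upper end.

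Of the genes of the related SET-16 complex, set-16 had the strongest CFP-1 peak of the group. Its CFP-1 peaks (III, 13643386 to 13644015 in RC03 and 13643388 to 13643894 in RC04) scored 200.2 and 174.4, at percentile ranks of 99.97 and 98.8. The H3K4me3 peaks around them (13642892 to 13644675 and 13642910 to 13644768) were 1784 and 1859 bp wide and scored 81.2 and 89.3, at percentile ranks of 94.7 and 98.1. An end of drr-2 also lay within 500 bp of these peaks of both antibodies, so they are not assigned to set-16 alone. At utx-1, the member on the X chromosome, CFP-1 peaks of 486 and 452 bp (X, 8556526 to 8557011 and 8556553 to 8557004) scored 55.2 and 54.3. They ended 135 and 142 bp outside the gene. The H3K4me3 peaks (8556562 to 8557704 and 8556506 to 8557544) scored 80.9 and 58.6, and extended 558 and 398 bp into the gene. An end of dhhc-14 lay within 500 bp of the utx-1 peaks.

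The demethylase genes split. At rbr-2 CFP-1 peaks of 613 and 828 bp (IV, 10918997 to 10919609 in RC03 and 10918947 to 10919774 in RC04) scored 93.2 and 118.6, at percentile ranks of 91.3 and 93.9. H3K4me3 was a single peak in RC03 (10918859 to 10920106, score 78.4). In RC04 the same stretch was called as 3 peaks, and the highest-scored of them (10919362 to 10919964) scored 70.2. The highest-scored CFP-1 peaks lay farther from the gene end than at the other genes called for CFP-1, with midpoints 767 and 709.5 bp outside it. H3K4me3 reached 36 bp into the gene in RC03 and, in a peak scoring 3.76, 165 bp in RC04. No other gene had an end within 500 bp of the highest-scored peaks of either antibody. At spr-5 neither antibody had a peak within 500 bp of either end or inside its 12159 bp in any list. This was the state of 61.8% of all protein-coding genes at their ends. The nearest peaks lay below its lower end, 3252 and 3151 bp away for CFP-1 (scores 99.6 and 103.0) and 2862 and 2705 bp away for H3K4me3 (scores 97.0 and 87.8). They were within 500 bp of an end of slc-25A46, and those of H3K4me3 also of an end of eif-3.J. Many worm genes are transcribed from a shared upstream promoter as operons, and neither operons nor internal transcript starts were examined here.

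Among the 7 genes with a peak in all 4 lists, set-16 had the highest and rbbp-5 the lowest CFP-1 rank in both lists. The mean percentile rank of CFP-1 was 99.4 at set-16, 92.6 at rbr-2, 91.8 at dpy-30, 90.7 at set-2, 90.4 at ash-2, 82.3 at utx-1 and 78.5 at rbbp-5. The values of RC03 and RC04 did not overlap between set-16 and the rest, or between utx-1 and rbbp-5. They overlapped between rbr-2 and dpy-30, between rbr-2 and set-2, and between set-2 and ash-2, so these 3 pairs did not differ beyond the spread of the 2 lists. The other pairs among the 4 genes did not overlap, although the lowest value of dpy-30 and the highest of set-2 were both 91.6. With only 2 values per gene, overlap or its absence describes the lists and does not test a difference between genes. By H3K4me3 the order began with ash-2 at 99.9 and dpy-30 at 99.4, with wdr-5.1 at 99.2 close to dpy-30. These were followed by set-16 at 96.4, rbr-2 at 93.6, utx-1 at 91.8, set-2 at 91.1 and rbbp-5 at 88.4, and cfp-1 stood at 70.2. Here the values of RC03 and RC04 overlapped between dpy-30 and wdr-5.1, and those of utx-1 overlapped the values of rbr-2, set-2 and rbbp-5, as did those of set-2 and rbbp-5 with each other. The gene with the highest CFP-1 rank, set-16, was thus not the one with the highest H3K4me3 rank.

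The 7 genes had a mean percentile rank of 89.4 ± 0.58 for CFP-1 and 94.4 ± 0.61 for H3K4me3 (SD, n = 2 lists each). In RC03 and RC04 the medians of the 7 were 91.3 and 90.6 in the CFP-1 lists and 94.6 and 93.3 in the H3K4me3 lists, and the medians of all 4635 protein-coding genes with a peak in all 4 lists were 80.1 and 80.5 in the CFP-1 lists and 87.3 and 88.5 in the H3K4me3 lists. For CFP-1, 7 of the 7 stood above the median of those genes in RC03 and 6 of 7 in RC04, the exception being rbbp-5. For H3K4me3 it was 6 of 7 in RC03, again without rbbp-5, and 7 of 7 in RC04. These values are a description, since a gene had to have peaks in all lists to enter. They include dpy-30, whose promoter is also in the transgene.

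**Figure D4:**
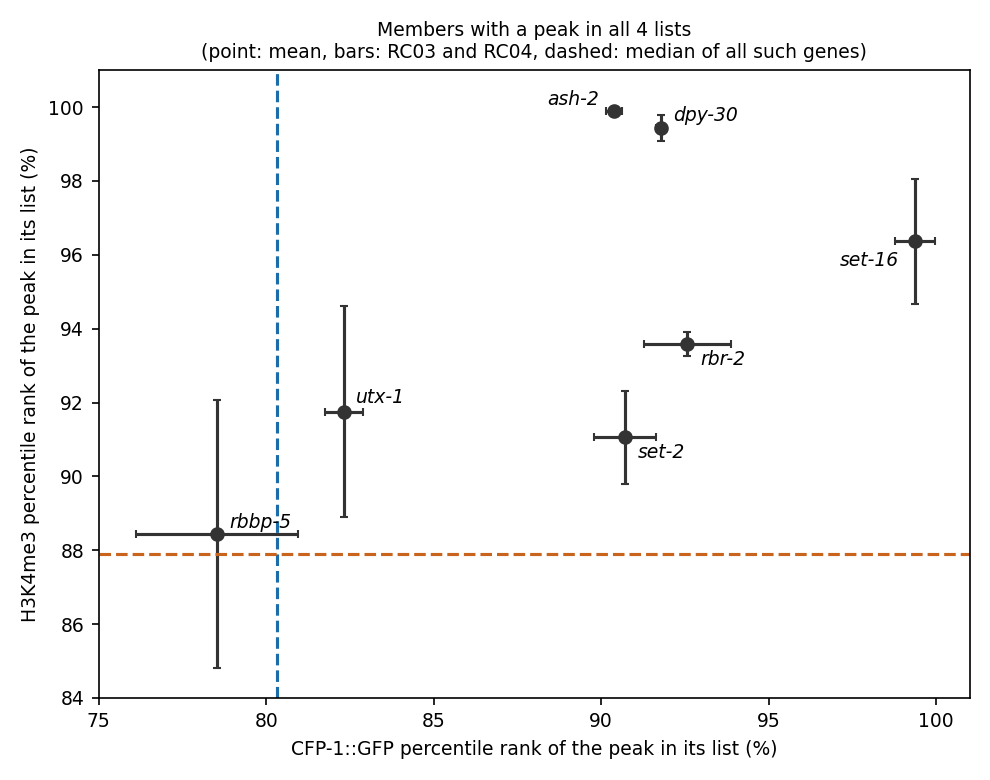
Mean percentile rank of the highest-scored H3K4me3 peak (vertical) against that of the CFP-1::GFP peak (horizontal) for the 7 genes with a peak in all 4 lists; bars run between RC03 and RC04, and dashed lines give the median of the 4635 protein-coding genes with peaks in all lists. Both axes are cut to the upper part of the scale, and set-16 lies farthest right while ash-2 and dpy-30 lie highest.

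On average, CFP-1 peaks at these genes were shorter than the H3K4me3 peaks that overlapped them. Over the 7 genes the highest-scored CFP-1 peak averaged 633 bp in RC03 and 475 bp in RC04, and the highest-scored H3K4me3 peak 1657 bp and 1568 bp, so all CFP-1 values lay below all H3K4me3 values. The mean over the lists was 554 ± 111 bp for CFP-1 and 1613 ± 63.3 bp for H3K4me3 (SD, n = 2 lists each), a difference of -1058 bp (exact permutation test over the 4 lists, two-sided p = 0.333, the smallest this design allows). The difference was general: over the 4635 genes with a peak in all 4 lists the means were 445 and 432 bp for CFP-1 and 1281 and 1278 bp for H3K4me3 in RC03 and RC04. The higher CFP-1 mean of RC03 comes with the single 1251-bp peak at ash-2, where the highest-scored RC04 peak was 373 bp. The H3K4me3 peak was between 1.85 and 3.82 times as wide as the CFP-1 peak of the same gene in RC03, and the median ratio of the 4635 genes was 2.87 in RC03 and 2.83 in RC04. In RC04 the ratio ran from 0.73 at rbr-2, where the mark was called in pieces, to 9.18 at ash-2, where CFP-1 was. In each pair of same-numbered lists 6 of 7 CFP-1 peaks lay wholly within the H3K4me3 peak, against 68.1% (RC03) and 69.0% (RC04) of the 4635 genes. The exceptions were utx-1 in RC03, with 92.6% of the CFP-1 peak covered, and rbr-2 in RC04, with 49.9% covered.

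Other genes of the same field were also mostly called. For all genes other than the members, ends of neighbouring genes near the peaks were not looked up. Peaks at those genes are therefore not assigned to them alone. Of 6 further genes linked to H3K4 methylation, 5 were called for CFP-1 and 6 for H3K4me3. The WDR5 paralogue genes wdr-5.2 and wdr-5.3 both had CFP-1, with scores of 25.03 and 37.8 at wdr-5.2 and 47.6 and 26.4 at wdr-5.3 in RC03 and RC04, whereas wdr-5.1 had a CFP-1 peak in RC03 only. The exception was pis-1, which had H3K4me3 at scores of 66.1 and 70.0 and no CFP-1 peak. Of 11 further histone lysine demethylase genes and partners, 7 were called for CFP-1 and 7 for H3K4me3, and 6 had overlapping peaks of both. Among these lsd-1 and amx-1, which encode LSD1-related proteins like SPR-5, had CFP-1 at scores of 55.3 and 56.9 (lsd-1) and 46.5 and 43.1 (amx-1), and spr-1, which encodes the CoREST homologue, had 77.1 and 51.1. No peak of any list was found at jmjd-1.1, jmjd-3.3 and jmjd-5, which was the state of 61.8% of all protein-coding genes.

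Of 6 genes of the SIN3 and histone deacetylase complexes, 4 were called for CFP-1 and 5 for H3K4me3. At hda-1, a class I deacetylase gene, H3K4me3 scored 68.6 and 65.1 and no CFP-1 peak was found, while hda-2 had no peak of either antibody. The chromodomain gene mrg-1 had CFP-1 at scores of 160.9 and 161.7. Of 11 genes for methyltransferases of other histone lysines and their partners, 9 were called for CFP-1 and 8 for H3K4me3. Among them, mes-3, which encodes a subunit of the worm Polycomb repressive complex, had CFP-1 at 5.75 and 7.46 and H3K4me3 in RC03 only, at 2.72. The CFP-1 scores in RC03 and RC04 were 186.2 and 180.9 at set-4 and 169.5 and 180.9 at dot-1.1. Both genes thus scored above set-16 in RC04 (174.4) and below it in RC03 (200.2). The share with CFP-1 ranged from 63.6% to 83.3% over these 4 lists and was 70.0% over the 10 members, against 25.9% of all protein-coding genes. For H3K4me3 it ranged from 63.6% to 100% and was 90.0% over the members, against 30.6%. For overlapping peaks of both antibodies it ranged from 54.5% to 83.3% and was 70.0% over the members, against 22.0%. No test between these lists was made.

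**Figure D5:**
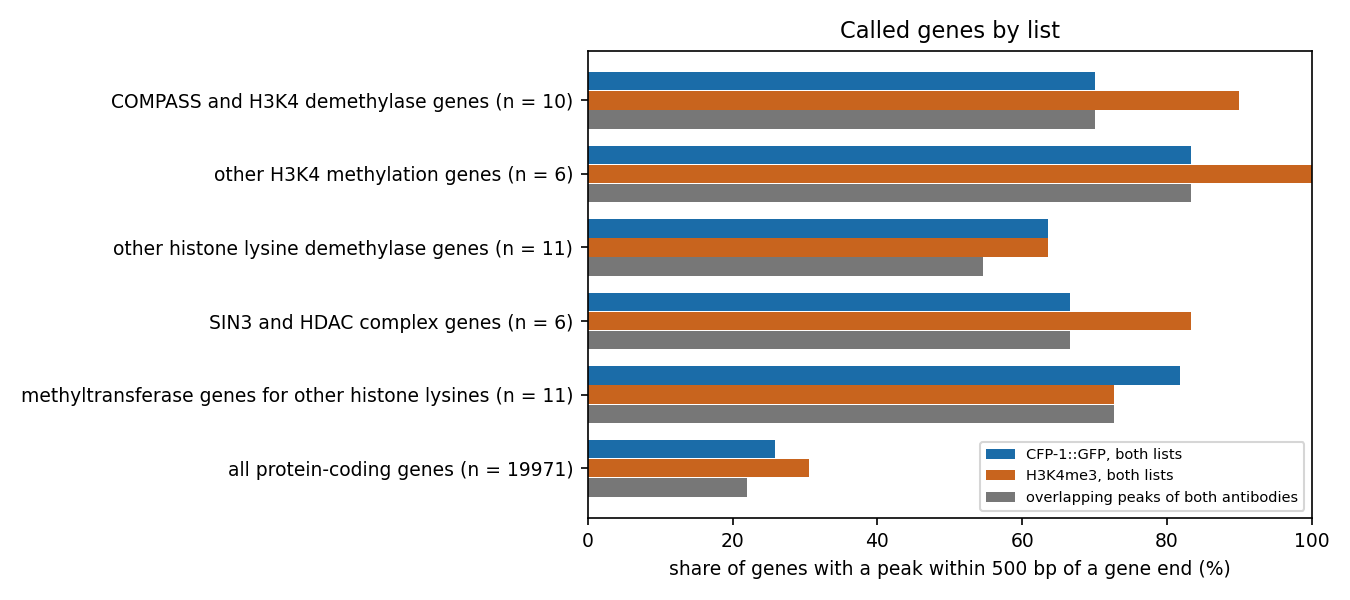
Share of genes with a CFP-1::GFP peak in both lists (blue), an H3K4me3 peak in both lists (orange) and overlapping peaks of both antibodies (grey) within 500 bp of a gene end, for the 10 members, 4 further lists of chromatin genes and all protein-coding genes. All 5 lists lie above the 25.9%, 30.6% and 22.0% of all protein-coding genes.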

How the data were processed

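ChIP-seq peak lists from 4 samples were used, 1 list per sample. Reads had been aligned with BWA to ce10 and peaks called with MACS2 2.0.10, per the submitters' processing notes. For the settings, control and threshold no source is at hand. Column 5 of the deposited lists is a −log10 score of a p-value or q-value from the authors' peak caller, and which of these was used is not stated. Peak names carry a larval stage abbreviation, whereas the labels give late embryos, and the labels were followed. Read depth is unknown, so no counting interval could be given. Nothing states that RC03 and RC04 are separate cultures, so their spread may be technical.

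Peaks were set against both ends of each gene of the RefSeq table (WBcel235), which has no strand and no sequence, so promoter CpG counts were not run and no sequences are given. All 44 listed genes matched by symbol. A peak counted at 1 bp of overlap with the window; per list, the highest-scored peak of a gene was used. Percentile ranks were computed within each list. Genes named in the text are the members, genes of 4 further lists, and genes with an end within 500 bp of a member's highest-scored peak, or for spr-5 of its nearest peaks; wdr-5.1's limit and the 5000 to 8000 bp class were set after values were seen. The members and lists were chosen with earlier results of these data known. Alternatives were other windows, ends moved by 100 bp, the higher-scored 50% of peaks, the widest peak, 50% overlap, and each list left out. The code was tested on simulated data: of 19971 genes with peaks planted at 2000, the calls were wrong at 0. Computations ran in Python 3.11.15 with pandas 2.3.3, numpy 2.4.6 and scipy 1.17.1, and plots were drawn with matplotlib 3.10.9.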

Additional observations from a re-analysis of the deposited data

How the results depend on the processing

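Of 63 alternative values, 58 stayed within 1.5 times the reported count, within 1 SD of the reported rank or in the same direction, and none reversed. Many of these could not have come out otherwise. Leaving out a list, widening the window or pairing same-numbered lists can only keep or raise a count. With 10 members such a rise stays within 1.5 times, and a count cannot reverse. The rank of an antibody also stays the same when a list of the other is left out, unless the genes entered change. With the upper end alone, an alternative chosen after seeing the data, 2 genes were called for CFP-1, 2 for H3K4me3 and 1 for both, against 7, 8 and 6 with the lower end alone. This follows from where the peaks lay, since only set-2 had its highest scores at the upper end. The mean CFP-1 rank was 88.7 with a window of 250 bp, which drops rbr-2, and ran from 82.3 to 89.4 with 1 list left out. The lowest of these arose without CFP-1::GFP RC04, where wdr-5.1 enters. Leaving out a list gave 7 to 8 genes for CFP-1 and 9 for H3K4me3, and a mean width difference of -1137 to -986 bp. Gene ends moved by 100 bp gave 6 to 7 genes for CFP-1, so rbr-2 depends on the exact position of its end. With the sample number as a replicate block, same-numbered lists gave 7 genes with overlapping peaks. The width difference, -1058 bp, is the same by construction (exact sign permutation p = 0.5, the smallest possible). The labels do not say that a number marks a shared extract, and the RC03 minus RC04 rank differences of the antibodies were related across 4635 genes with a Spearman rho of -0.016. Promoter CpG counts were not run. With depth unknown, the lack of a peak is not the lack of binding or of the mark.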
